A study of Arabidopsis thaliana with 4 samples.

Results

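The response of erf6-1 plants to high light was described across all probe sets of the array, a probe set being the group of short probes that together measure a transcript. erf6-1 is a mutant, in the Col-0 background, of ERF6, which encodes an ethylene response factor. Plants of this genotype were sampled after 2 h at a light intensity of 2000 µmol m-2 s-1, and untreated. Col-0 wild-type plants were sampled in the same manner after 2 h of the same light, and untreated. Each of these 4 groups was measured on 1 Affymetrix array, so no difference can be set against a spread between replicates, and no test is possible. The labels give the material as whole seedlings aged about 3 weeks and do not state how many plants were pooled or what the erf6-1 lesion is, and ERF6 itself was not analysed here. The series was designed to find genes that depend on ERF6 under oxidative stress and high light.

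Of 22746 probe sets, 7676 (33.7%) had a signal of at least 588, the pooled 75th percentile of the 4 arrays, on at least 1 of the 2 erf6-1 arrays, and these are the probe sets described. They included 3940 that could be named, which stand for 3930 genes of the 13286 genes with a name in the whole table. A further 3736 had no name here and enter only the counts of probe sets. Signals under 100 were raised to 100 before the log2 difference (high light minus untreated) was taken. Where only the lower array lay under that floor, the difference is a bound and the fold is written as at least. Named genes just inside the limit were AT4G31410, with 528 in high-light and 588 in untreated erf6-1, and AT3G08630, with 149 and 588 on the same arrays. Just outside it were AT5G10920, with 587.5 in high-light and 492 in untreated erf6-1, and AT1G72420, with 159 and 587.9.

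Light beyond what photosynthesis can use leads chloroplasts to form reactive oxygen species, and strong lamps also warm leaves and raise water loss. Plants answer such conditions with chaperones that hold unfolding proteins, with late embryogenesis abundant (LEA) proteins and dehydrins that protect cells from water loss, and with enzymes that remove peroxides and reactive aldehydes. ERF factors bind promoters of stress genes, and ERF6 is known as one that acts downstream of mitogen-activated kinases and in oxidative stress.

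The 4 arrays had nearly equal trimmed mean signals, from 493 to 495. Their median signals were 207 in high-light and 321 in untreated erf6-1, against 208 in high-light and 279 in untreated wild type. The untreated erf6-1 array also had the most probe sets at or above 588, with 6561, whereas the other arrays had 5162 to 5842. Leaf genes were bright on both erf6-1 arrays. RCA, which activates Rubisco, had 32887 in high-light and 40655 in untreated erf6-1, and the photorespiration enzyme HPR had 18822 and 16916 on the same arrays. The root genes PYK10, with 18297 in high-light and 21338 in untreated erf6-1, and JAL33, with 2717 and 2807, were also present, while 3 further root genes, root hair expansins among them, lay between 102 and 852. Neither of the 2 flower, pollen and seed genes with a named probe set reached 588 on an erf6-1 array. A text on animal embryos in all 4 sample records goes against their own tissue field and was set aside.

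High light went with both higher and lower signals in erf6-1. Among the 3930 named genes, 598 were 2-fold or more higher in high light (15.2%) and 1086 were at least 2-fold lower (27.6%). Counts over lists and families below are to be read beside these shares. Wild-type counts are to be read beside 15.0% higher and 14.7% lower in high-light wild type over the same genes. Among all 7676 probe sets the erf6-1 counts were 1280 higher (16.7%) and 1860 lower (24.2%). The 598 higher genes had a median signal of 1372 in high-light and 419 in untreated erf6-1, and the 1086 lower genes 233 in high-light and 789 in untreated erf6-1. At least 8-fold differences were found for 55 genes on the higher side and 62 on the lower side. The lower side leaned more on dim signals: 230 of its 1086 differences were bounds, against 71 of 598 on the higher side.

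**Figure D1:**
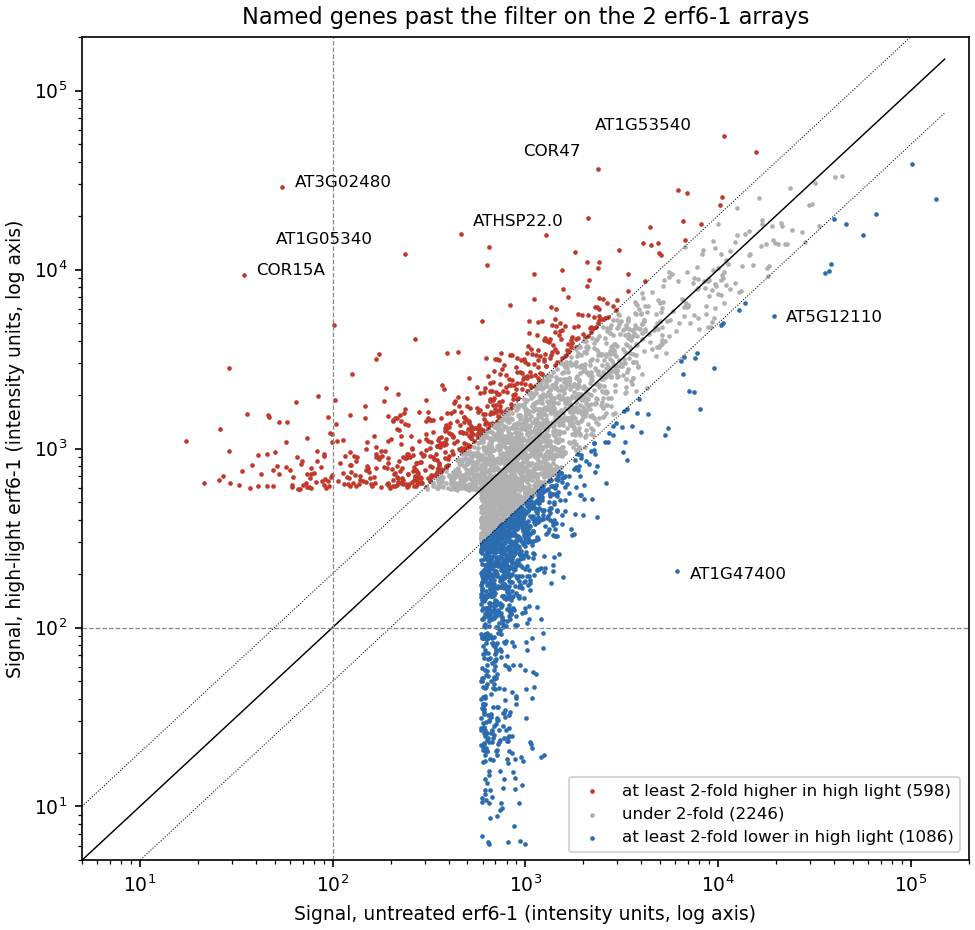
Signals of the 3930 named genes on the high-light erf6-1 array (vertical, log axis) and the untreated erf6-1 array (horizontal, log axis), with 1 point a gene. Solid and dotted lines mark equal and 2-fold different signals, and dashed lines the floor of 100; the 598 genes above the upper dotted line reach far brighter signals than most of the 1086 below the lower one.

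The direction of the difference moved with brightness. Of 3654 probe sets whose brighter erf6-1 array lay between 588 and 1000, 408 were past 2-fold on the higher side (11.2%) and 1385 on the lower side (37.9%). Between 4000 and 8000, 162 of 482 were higher (33.6%) and 16 lower (3.32%). At 8000 or more, 98 of 373 were higher (26.3%) and 31 lower (8.31%). Among the 1932 named genes that reached 588 on both arrays, 232 were past 2-fold on the higher side (12.0%) and 87 on the lower side (4.50%), so that 72.7% of these differences were on the higher side. Setting the arrays to equal medians would add 0.63 to every log2 difference between signals above the floor, and the part of the higher median of the untreated erf6-1 array in the lower calls was not tested. Differences are given as deposited, beside a median of -0.25 over the 3930 named genes.

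**Figure D2:**
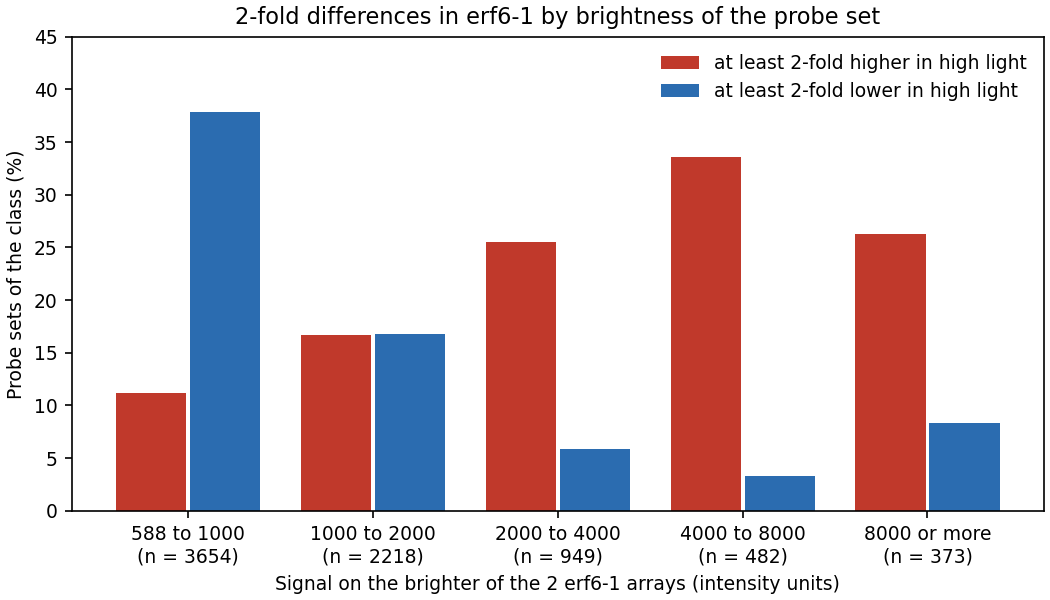
Share of probe sets at least 2-fold higher (red) or lower (blue) in high-light erf6-1, in percent of each class of signal on the brighter of both erf6-1 arrays. Lower differences lead in the class from 588 to 1000, at 37.9%, and higher ones in every class from 2000 upward.

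LEA proteins and dehydrins were far brighter in high-light than in untreated erf6-1. Of 51 listed family members, 35 had a named probe set and 14 passed the filter, of which 13 were at least 2-fold higher in high-light erf6-1 and none 2-fold lower; this family list was drawn up after single values had been seen. Their median log2 difference was 3.005, against -0.25 over all named genes, of which 15.2% were higher and 27.6% lower. The filter favours members that are bright on 1 array, so the count is a description; without a filter, the median over the 35 was 0.56. All 7 measured genes of an overlapping list of cold and dehydration genes were past 2-fold on the higher side, and their median was 4.25. AT3G02480, an LEA protein, had 29064 in high-light and 54.6 in untreated erf6-1, at least 291-fold higher, and was one of the 10 brightest named genes in high light. COR15A (AT2G42540), which protects chloroplast membranes in the cold, had 9280.4 and 34.6 on the same arrays, at least 92.8-fold higher. LEA4-5 had 3174 in high-light and 167 in untreated erf6-1, 19.0-fold higher.

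The remaining LEA genes spanned a wide range of starting levels. LEA18 had 1964 in high-light and 84.4 in untreated erf6-1, at least 19.6-fold higher. AT3G15670 had 923 and 41.1 on those arrays and AT3G17520 had 1665 and 239, log2 differences of 3.21 (a bound) and 2.80. Dehydrins were already bright without treatment: COR47 had 36678 in high-light and 2395 in untreated erf6-1 (3.94 on the log2 scale), LTI30 had 11061 and 2416 (2.19), and AT1G54410 had 14617 and 6779 (1.11). AT2G23120 had 11027 in high-light and 2085 in untreated erf6-1, AT2G44060 had 6936 and 2402, and AT2G23110 had 733 and 347, log2 differences of 2.40, 1.53 and 1.08. The 1 member under 2-fold was DI21, with 2515 in high-light and 1444 in untreated erf6-1, a log2 difference of 0.80. The same 14 genes had a wild-type median of 2.37, and 12 were at least 2-fold higher.

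Small heat shock proteins, chaperones that bind unfolding proteins and keep them from clumping, included the brightest named gene of the high-light erf6-1 array. Of 9 measured members, the class III protein added after values had been seen, 7 were at least 2-fold higher and none 2-fold lower. Over all named genes these shares were 15.2% and 27.6%. The median of the 9 was 1.61. The cytosolic class I proteins AT1G53540 and AT2G29500 were the brightest: AT1G53540 had 55781.5 in high-light and 10794 in untreated erf6-1 (2.37), and AT2G29500 had 45512.5 and 15749 (1.53). HSP22.0 (AT4G10250), of the endoplasmic reticulum, had 15733 in high-light and 462 in untreated erf6-1, 34.1-fold higher. AT1G52560 (HSP26.5), an organelle protein, had 13380.4 and 649, 20.6-fold higher, and AT1G54050, of class III, had 12839.8 and 3068, a log2 difference of 2.07. AT5G37670 (HSP15.7) had 13636 in high-light and 4471 in untreated erf6-1 (1.61), and AT5G51440 had 3699 and 1729 (1.10). AT2G19310 and AT4G21870 stood apart, with log2 differences of -0.54 and -0.34.

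Larger chaperones and their partners differed less. Of 8 measured, 3 were at least 2-fold higher and none 2-fold lower, beside 15.2% and 27.6% over all named genes. Their median was 0.81. HSA32, which prolongs acquired heat tolerance, had 14064 in high-light and 4062 in untreated erf6-1, a log2 difference of 1.79. The cochaperones Hop3, with 3938 in high-light and 1323 in untreated erf6-1, and Hop2, with 2594 and 1228, stood at 1.57 and 1.08. Fes1A, a nucleotide exchange factor of Hsp70, lay just under 2-fold at 0.99. AT3G09440 and Hsp70-2, both Hsp70 proteins, were at -0.04 and -0.78. In the wild type Hop3 was at 0.02, with 3033 in high-light and 2983 in untreated plants, and the median of the list was 0.15. Genes of the unfolded protein response in the endoplasmic reticulum went both ways, with a median of -0.58 over 5, or 0.06 with equal medians: the membrane-bound factor BZIP28 was at 1.49 and its relative BZIP17 at -1.30, while the calcium-binding chaperone CRT1b had 1572 in high-light and 3779 in untreated erf6-1 (-1.27).

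The 20 highest log2 differences of genes with both signals above the floor ran from 3.30 to 5.68, and included HSP22.0, AT1G52560, COR15B, LEA4-5 and COR47 of the families above. In high-light erf6-1 these 20 genes had a median signal of 2883, and in untreated erf6-1 170, so most started close to the floor. Among the others, AT1G05340, a small cysteine-rich membrane protein, had 12198 in high-light and 237 in untreated erf6-1. AT2G41190, of the amino acid transporter family, had 10622 and 635 on the same arrays, 16.7-fold higher, and AT1G55210, a dirigent protein, had 4089 and 267.5, 15.3-fold higher. AT1G09500, related to alcohol dehydrogenases, had 1869 in high-light and 103 in untreated erf6-1, 18.2-fold higher, and AT5G17380, a 2-hydroxyacyl-CoA lyase, had 2171 and 190.1, 11.4-fold higher. AT1G57590, a pectin acetylesterase, had 1114 and 113, 9.88-fold higher.

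Several of these genes already stood well above the floor in untreated wild type. AT2G34310 had 1737 in high-light and 147 in untreated erf6-1, but 1024 in high-light and 918 in untreated wild type. SHL1, a reader of histone marks, had 1098 in high-light and 106 in untreated erf6-1, but 536 in high-light and 756 in untreated wild type. PUB19 had 4892 in high-light and 102 in untreated erf6-1, against 4389.6 in high-light and 919.5 in untreated wild type. In all of these the untreated erf6-1 array was the lowest of the 4 arrays.

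Genes at or above 588 on both erf6-1 arrays give the measured folds that depend least on the floor. The 25 highest nuclear ones, chosen after values had been seen, ran from 2.10 to 4.37 on the log2 scale, and all 25 differed by 2-fold or more in that direction in the wild type too. Of all 1932 named genes at or above 588 on both erf6-1 arrays, 275 were 2-fold or more higher in the wild type. ALDH7B4, an aldehyde dehydrogenase, had 15612 in high-light and 1276.5 in untreated erf6-1, 12.2-fold higher. AT5G61820, a stress-induced protein of the Nod19 type, had 19326 and 2126, 9.09-fold higher, and AT4G30470, related to cinnamoyl-CoA reductases, had 9396 and 1113, 8.44-fold higher. AT3G17800, a protein of unknown function, had 12510 and 1813, 6.90-fold higher, and AT5G47550, a cystatin that blocks cysteine proteases, had 9965.5 and 1559, 6.39-fold higher. AT5G47610, a RING-type ubiquitin ligase, had 5188 in high-light and 1042 in untreated erf6-1, and ZW9 had 10169.6 and 2377.5, 4.98-fold and 4.28-fold higher.

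**Figure D3:**
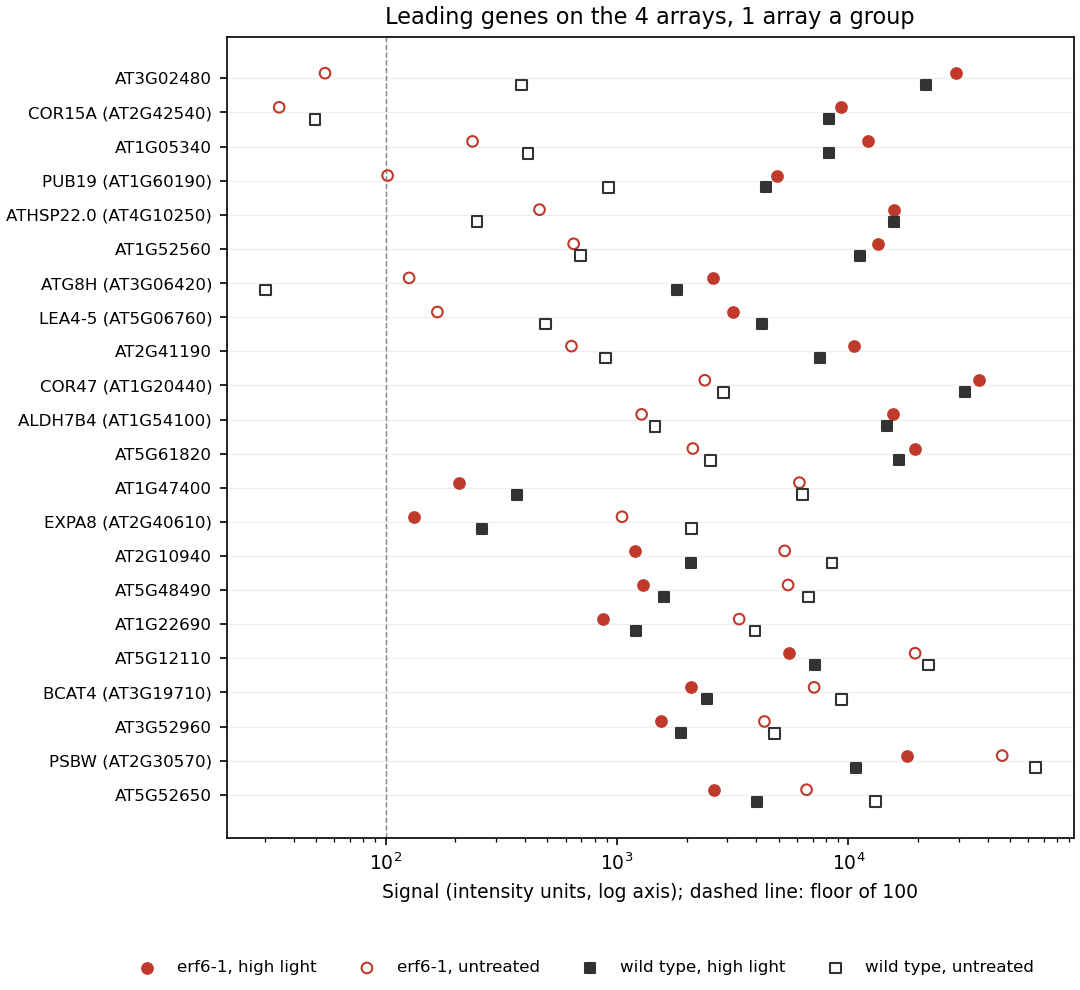
Signals of 22 leading genes on each of the 4 arrays (log axis, 1 point an array): erf6-1 as circles, wild type as squares, filled for high light and open for untreated. The upper 12 genes are brighter in high light in both genotypes and the lower 10 dimmer; open circles of PUB19 and AT3G02480 lie well left of the open squares.

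Of 15 genes known as markers of oxidative stress with a named probe set, 8 passed the filter, 6 of them past 2-fold on the higher side and 1 on the lower side, beside 15.2% and 27.6% over all named genes. Of the 6, only AT5G43450 reached 588 on both arrays. The median of 2.05 over the 8 was 0.39 over the 15 without a filter. AT1G19020 had 1549.5 in high-light and 123 in untreated erf6-1, 12.6-fold higher. The zinc finger repressor STZ (ZAT10) had 1589 and 411 on the same arrays (1.95), the mitochondrial stress marker AT2G21640 had 1478 and 314 (2.23), and AT5G43450 had 3152 and 712 (2.15). AT2G32190 was the exception, with 57.9 in high-light and 692 in untreated erf6-1, a bound of -2.79. In the wild type 7 of the 8 were at least 2-fold higher.

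Enzymes that remove peroxides and recycle ascorbate and glutathione mostly stayed within 2-fold. Of 13 measured, 2 were past 2-fold on the higher side and 2 on the lower side, beside 15.2% and 27.6% over all named genes. Their median was -0.03, or 0.63 with equal medians. ATMDAR2, which regenerates ascorbate, had 3342 in high-light and 833 in untreated erf6-1, a log2 difference of 2.00, and GR1, a glutathione reductase, had 4794 and 2336 (1.04). On the lower side, the chloroplast peroxiredoxin PRXIIE (AT3G52960) had 1553 in high-light and 4336 in untreated erf6-1 (-1.48), and GLDH, the last enzyme of ascorbate synthesis, had 219 and 746 (-1.77). The chloroplast ascorbate peroxidases TAPX and SAPX and the thioredoxin reductase NTRC lay at 0.02, 0.05 and -0.03. Their wild-type differences were -0.48, -0.72 and -0.97.

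Enzymes that reduce or oxidise reactive carbonyls, a list drawn up after values had been seen, held 3 higher and 1 lower of 9 measured genes. Over all named genes 15.2% were higher and 27.6% lower. The median of the 9 was 0.56. Beside ALDH7B4 the higher ones were the chloroplast aldehyde reductase AT3G04000 and the alkenal reductase AER (AT5G16970). AT3G04000 had 1479 in high-light and 146.5 in untreated erf6-1, and AER had 1179 and 163. AT3G04000 and AER passed the filter only through the high-light array, whereas ALDH7B4 passed on both arrays. The lower gene was AT1G54870, with 23.2 in high-light and 801 in untreated erf6-1. AT1G54870 passed only through the untreated array. AER had 979.6 in high-light and 1491 in untreated wild type, so that its high-light erf6-1 signal was above the untreated erf6-1 array and below the untreated wild-type array. The aldehyde dehydrogenases ALDH10A8 and ALDH10A9 were at -0.14 and -0.16, and only ALDH7B4 of 7 measured family members was past 2-fold.

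Of 8 measured ATG8 genes, grouped after values had been seen, whose products are attached to the membrane of growing autophagosomes, 5 were at least 2-fold higher and none 2-fold lower, with a median of 1.13. Over all named genes 15.2% were higher and 27.6% lower. ATG8H had 2593 in high-light and 126 in untreated erf6-1, 20.6-fold higher. The others were bright on both arrays or nearly so: ATG8F had 4697 in high-light and 2239 in untreated erf6-1 (1.07), APG8A had 3821 and 1670.2 (1.19), and AT3G15580 had 3809 and 1385 (1.46). ATG8B, with 1226 and 472.5, stood at 1.38, and the members under 2-fold, ATG8E, ATG8D and ATG8C, at 0.96, 0.63 and 0.62. ATG3, the enzyme that attaches ATG8 to lipid, was at 0.93. In the wild type 2 of the 8 were at least 2-fold higher and the median was 0.77. Proteasome subunits measured beside them, such as RPN12a at 0.41, lay within 2-fold, and the whole list of autophagy and proteasome genes had a median of 0.96 over 13.

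Ubiquitin ligases of the U-box type did not move together. Beside PUB19 at 5.59, PUB49 was at 0.98, and 4 of 6 measured members were at least 2-fold lower, against 27.6% over all named genes. PUB23 and PUB24, which dampen immune signalling, had 229.9 and 233.5 in high-light and 854 and 699.9 in untreated erf6-1, log2 differences of -1.89 and -1.58. PUB43 was at -1.57 and PUB26 at -2.57, a bound. These 4 had their brighter signal between 593 and 1128, 3 of them in the class from 588 to 1000 where lower calls were most frequent. With equal medians the family median was 0.34 in place of -1.58. Of 10 measured ubiquitin-conjugating enzymes, which like the next group were listed after values had been seen, UBC30 was the only member past 2-fold, with 2569.5 in high-light and 1124 in untreated erf6-1 (1.19). The ESCRT-related subunit VPS60.1 had 897 and 167 (2.42), while the other 5 vacuolar sorting subunits measured lay between 0.13 and 0.59.

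Enzymes that attach sugars to small molecules, the UDP-glycosyltransferases, had 47 members with a named probe set, of which 12 passed the filter, 6 of them higher and 2 lower at 2-fold, beside 15.2% and 27.6% over all named genes. Their median of 1.01 was 0.30 with the filter at the pooled median of 248.6 and 0.00 without a filter. UGT87A2 had 2216 in high-light and 563 in untreated erf6-1 (1.98), UGT71C4 had 3336 and 1360.0 (1.29), and UGT78D2, which glucosylates flavonoids and anthocyanins, had 2681 and 940.1 (1.51). UGT72B3 and UGT74F1 were at -2.51 and -2.79, the second a bound. Of 13 glutathione S-transferases with a named probe set, 9 passed the filter, 3 of them higher and 1 lower at 2-fold. The shares over all named genes were 15.2% and 27.6%. The family median of 0.31 was 0.00 without a filter. GSTU25 had 1267 in high-light and 386 in untreated erf6-1 (1.72), and GSTU22 had 813 and 38.1, at least 8.13-fold higher. Both passed the filter only through the high-light array. GSTU16, with 2158 and 892 (1.27), passed on both arrays. Of 6 genes of flavonoid and phenylpropanoid synthesis, 2 were higher and none lower, namely UGT78D2 and CHIL, a chalcone isomerase-like protein, with 1377 in high-light and 237 in untreated erf6-1 (2.54). CHIL passed the filter only through the high-light array, and had 1568 in high-light and 885 in untreated wild type (0.82). The anthocyanin enzyme DFR was at 0.58, with 694 and 465.5, and at 1.40 in the wild type. The list's median of 0.37 was 0.04 without a filter. In the wild type the 6 had a median of 1.11, with 3 higher and none lower. Cytochrome P450 CYP71B26 had 3139.9 in high-light and 733 in untreated erf6-1 (2.10).

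Small secreted proteins of the lipid transfer type and their relatives went in both directions. Of 18 measured, 7 were past 2-fold on the higher side and 6 on the lower side, beside 15.2% and 27.6% over all named genes. The list was made after values had been seen. AT1G62510 had 27809 in high-light and 6217 in untreated erf6-1 (2.16), AT3G22620 had 6206 and 1354 (2.20), and AT2G37870 had 5063 and 1165 (2.12). AT2G10940 had 1195.5 in high-light and 5304 in untreated erf6-1 (-2.15), and AT5G48490 had 1300.4 and 5486 (-2.08). These 5 had wild-type differences of 1.33, 2.24, 2.15, -2.02 and -2.08. The other lower members had their brighter erf6-1 signal between 619 and 1524: AT2G48130 and AT5G13900 were at -1.39 and -1.14 in erf6-1 but at 1.50 and 2.17 (a bound) in the wild type, and AT2G18370, at -1.05, was at 0.17 there. AT4G12500, a bound of -2.63, was under the floor on both wild-type arrays. Over the 18 genes the wild type had 11 higher and 3 lower at 2-fold.

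Nuclear genes of the photosynthetic apparatus were bright on both arrays and mostly within 2-fold. Of 8 measured photosystem and antenna genes, only PSBW, a small photosystem II subunit, was past 2-fold, at 17963.5 in high-light and 46246.5 in untreated erf6-1 (-1.36). The list's median was -0.09, and 0.54 with equal medians. The antenna protein LHCB4.1 had 15556 in high-light and 12610.0 in untreated erf6-1 (0.30), and its relative LHCB4.2 had 10675 and 15160.2 (-0.51). PSB27, which helps repair photosystem II, was at 0.62, and the photosystem I subunit PSAN at -0.72. The Calvin cycle enzymes PRK and SBPASE were at 0.80 and -0.26. In the wild type the photosystem list had a median of -0.59 and 3 of 8 were at least 2-fold lower.

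Of 7 measured genes of pigment synthesis, 3 were at least 2-fold lower and none higher, beside 27.6% lower over all named genes. CHLI2, a subunit of magnesium chelatase, had 389 in high-light and 1168 in untreated erf6-1 (-1.59). The reductase AT1G74470, which completes the side chain of chlorophyll, had 5046 and 10571 (-1.07), and CHLM, the methyltransferase after the chelatase, had 1669 and 3371 (-1.01). The list's median of -0.54 was 0.24 with equal medians.

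Transcripts encoded in the plastid genome had mostly lower signals in high-light erf6-1, but most differences lay within 2-fold. Of 69 with a named probe set, 46 passed the filter. Of these 18 were 2-fold or more lower, 1 higher and 27 within 2-fold, beside 27.6% lower and 15.2% higher over all named genes. The median of the 46 was -0.88, and -0.26 with equal medians. The summed signal of plastid probe sets was 1.93% of all signal in high-light and 4.39% in untreated erf6-1, against 2.24% in high-light and 8.14% in untreated wild type. By role, a grouping made after values had been seen, the genes of the NADH dehydrogenase-like complex had a median of -1.68 over 5 measured of 10, with 4 at least 2-fold lower, and medians of -0.82 with the filter at the pooled median and -0.58 without a filter. Those of photosystem I and its assembly had a median of -1.42, with 3 of 4 lower, and those of the ATP synthase -1.38 with 3 of 5. Photosystem II genes had a median of -0.36 (0.28 with equal medians) with 3 of 11 at least 2-fold lower, a share close to the 27.6% over all named genes. None of the 3 cytochrome b6f genes was past 2-fold.

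Within that group psbM, a small photosystem II subunit, had 24927 in high-light and 135339 in untreated erf6-1 (-2.44), and psbA, which encodes the D1 protein that turns over fastest in strong light, had 2064 and 7514 (-1.86). The ATP synthase gene atpE had 38891 in high-light and 101201 in untreated erf6-1 (-1.38), and ndhC had 15559 and 56775 (-1.87). The polymerase subunit rpoA had 9873 and 37815 (-1.94). The photosystem II genes psbF, psbL and psbE, which lie together with psbJ on the plastid genome, were at -0.03, -0.16 and -0.16, and psbJ at -0.80. The gene on the higher side was rpl36, with 737 in high-light and 155 in untreated erf6-1 (2.25). In the wild type 32 of the 46 were at least 2-fold lower and the median was -1.44. The labels name the standard Affymetrix labelling, which starts from poly(A) tails that plastid transcripts largely lack, and its part in these signals was not tested.

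Of 15 genes of cell wall loosening and growth with a named probe set, 5 passed the filter and 3 of these were at least 2-fold lower, beside 27.6% over all named genes. All 3 passed only through the untreated array, and the median of -1.25 over the 5 was -0.15 over the 15 without a filter. The expansin EXPA8 had 133 in high-light and 1050.5 in untreated erf6-1, EXO, which promotes cell expansion, had 354 and 1718, and the wall-remodelling enzyme XTH16 had 265.5 and 633, log2 differences of -2.99, -2.28 and -1.25. Another expansin, EXPB3, had 267 and 822.5, a difference of -1.62. XTH19 lay at 0.75. With equal medians fewer members passed the filter and the list's median was 0.48, a change of direction. Of 8 auxin response genes with a named probe set, 2 passed the filter, both only through the untreated array: WES1, which conjugates auxin to amino acids, had 409.7 in high-light and 1294 in untreated erf6-1 (-1.66), and LBD16, of lateral root formation, had 22.2 and 614, a bound of -2.62.

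Lower genes with at least 588 on both erf6-1 arrays were fewer. The 25 lowest nuclear ones, again chosen after values had been seen, ran from -2.15 to -1.26, and 17 also differed by 2-fold or more in the wild type, in the same direction. Of all 1932 named genes at or above 588 on both erf6-1 arrays, 146 were 2-fold or more lower in the wild type. AT5G12110, a subunit of translation elongation factor 1, had 5537.5 in high-light and 19436 in untreated erf6-1 (-1.81). AT5G52650, a ribosomal protein of the S10 family, had 2618 and 6594 (-1.33). BCAT4, an enzyme of methionine-derived glucosinolate synthesis, had 2095 and 7111 (-1.76). AT1G22690, of the gibberellin-regulated family, had 866.5 in high-light and 3372 in untreated erf6-1 (-1.96), AT5G11420 had 802 and 2352, and AT2G34620, of the family of organelle transcription termination factors, had 739.5 and 2312.6. AT1G76010, an RNA-binding protein of the Alba type, had 640.1 and 2637 (-2.04), with a wild-type difference of -0.71.

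The 20 lowest log2 differences above the floor ran from -4.88 to -2.83 and had a median signal of 114 in high-light and 981 in untreated erf6-1. AT1G47400, a short peptide induced by iron shortage, was alone among them in its brightness, with 208 in high-light and 6141 in untreated erf6-1, 29.5-fold lower. The next ones, AT2G46915 with 111 and 1212, AT2G33720 with 106 and 1017, and the cation exchanger CHX6B with 112 and 1046, were 10.9-fold, 9.57-fold and 9.34-fold lower. AT5G14130, a class III peroxidase, had 103 in high-light and 881 in untreated erf6-1. In the untreated wild type the 20 genes had a median signal of 384. In high-light wild type 12 of the 20 were at least 2-fold lower, beside 14.7% over the 3930 named genes. The largest bounds on the lower side were close to each other, from at least 10.8-fold to at least 12.5-fold, and included AT5G63180, of the pectin lyase family, with 76.6 in high-light and 1238.5 in untreated erf6-1.

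**Figure D4:**
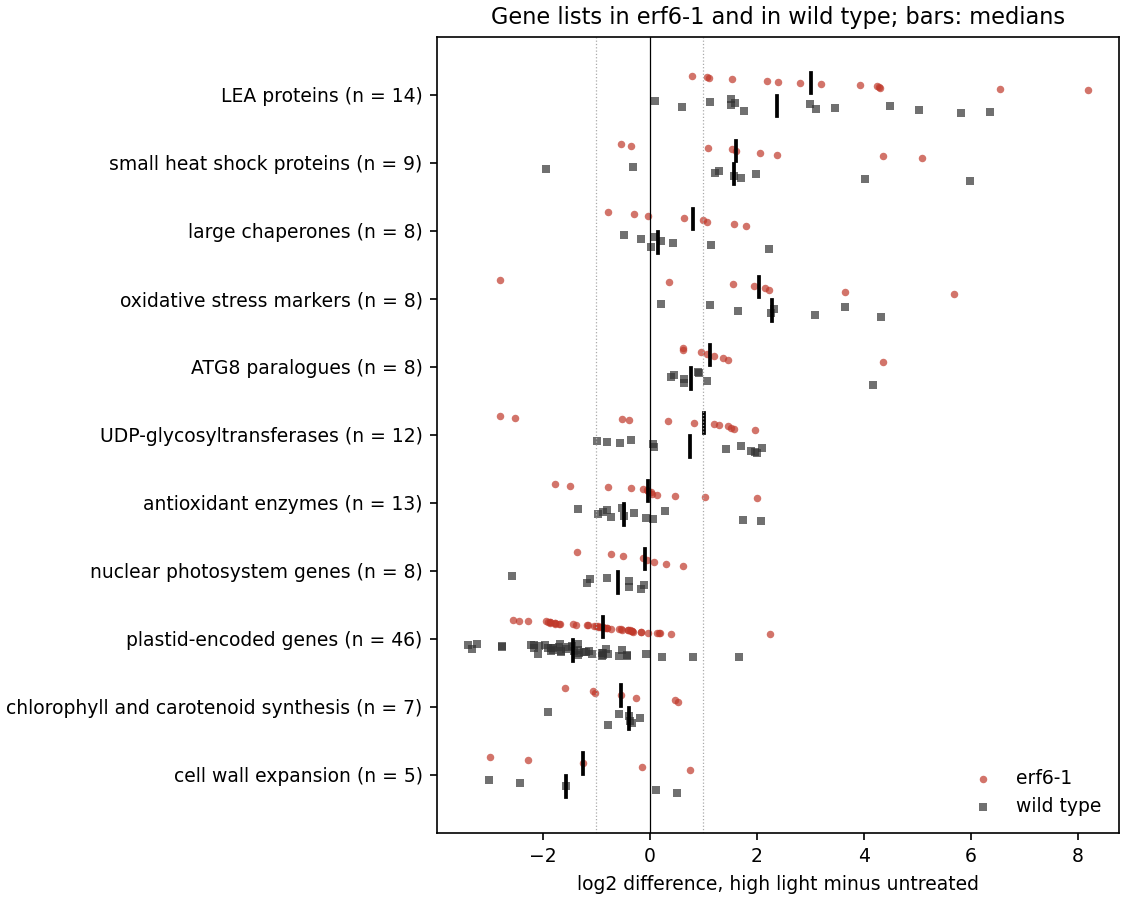
log2 difference (high light minus untreated) of each measured member of 11 gene lists, with erf6-1 as circles and wild type as squares; black bars are medians. LEA proteins reach 8.18 in erf6-1, while the 46 plastid-encoded genes lie mostly below 0 in both genotypes.

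Genes used to compare samples did not sit at 0. Of 9 reference genes with a named probe set, 4 passed the filter, and none of these was past 2-fold. TUB6 had 1564 in high-light and 818 in untreated erf6-1 (0.94), AT5G46630, of clathrin-coated vesicles, had 1689 and 918 (0.88), and AT4G26410 had 1322 and 793 (0.74). GAPC2, a glycolytic enzyme, had 16158 in high-light and 27147 in untreated erf6-1 (-0.75). Their wild-type differences were -0.05, 0.98, -0.11 and -0.63. Light and clock genes with a name here were GI, with 881 in high-light and 242 in untreated erf6-1 (1.87), CCL, with 4590.5 and 1547 (1.57), and HYH at 0.18. GI passed the filter only through the high-light erf6-1 array. In the wild type GI had 1029 in high-light and 667 in untreated plants (0.63), and CCL had 2578.5 and 2389 (0.11).

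The brightest genes in high light combined chaperones, LEA proteins and photosynthesis. The 10 brightest named genes of the high-light erf6-1 array ranged from 27809 to 55781.5 and held AT1G53540, AT2G29500, COR47 and AT3G02480 beside RCA, PSAE-1, the plastid genes atpE and petB, the metallothionein MT1C and AT1G62510. The 10 brightest of the untreated erf6-1 array ranged from 37815 to 135339 and held 7 plastid genes. MT1C had 28680.1 in high-light and 23585.6 in untreated erf6-1, and petB 33399 and 44220.4, so neither was past 2-fold.

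Set against the wild type, the erf6-1 response ran in the same direction for most genes that were higher. No array is shared between both responses. On the same 3930 genes, 591 were 2-fold or more higher (15.0%) and 577 were 2-fold or more lower (14.7%) in high-light wild type. They were chosen on the erf6-1 arrays alone, so genes bright only on a wild-type array are missing from the wild-type counts and shares. Of the 7676 probe sets, 2488 reached 588 only on the untreated erf6-1 array and 1115 only on the high-light one. Of the 598 genes higher in erf6-1, 276 were 2-fold or more higher in the wild type as well, which is 46.2% of the erf6-1 genes and 46.7% of the wild-type ones, and 11 were at least 2-fold lower. A further count of sign alone gave 511 of 598 (85.5%), beside a median wild-type log2 difference of 0.00 over all 3930 genes. Of the 1086 genes lower in erf6-1, 374 were also at least 2-fold lower in the wild type, 34.4% of the erf6-1 genes and 64.8% of the wild-type ones, and 83 were at least 2-fold higher. The sign was shared by 733 of 1086 (67.5%). Across the 3930 genes Pearson's correlation of both log2 differences was 0.52, and it was 0.61 across the 1932 genes at or above 588 on both erf6-1 arrays; genes are not independent replicates.

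Signals of the called genes on the 4 arrays show where the genotypes lay. The 598 higher genes had medians of 1372 in high-light erf6-1 and 419 in untreated erf6-1, against 1174 in high-light and 728 in untreated wild type. The 1086 lower genes had medians of 233 in high-light and 789 in untreated erf6-1, against 261 in high-light and 403 in untreated wild type. In both sets the high-light medians were closer to each other than the untreated ones. The genes were chosen by a difference that uses the untreated erf6-1 array, and with 1 array a group an error of that array and a difference between the genotypes cannot be told apart. Among the genes at or above 588 on both erf6-1 arrays, the 232 higher ones had medians of 3278 in high-light and 1155 in untreated erf6-1, against 2829 in high-light and 1386 in untreated wild type. The 87 lower ones had medians of 966 in high-light and 2352 in untreated erf6-1, against 1201.5 in high-light and 2432 in untreated wild type.

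**Figure D5:**
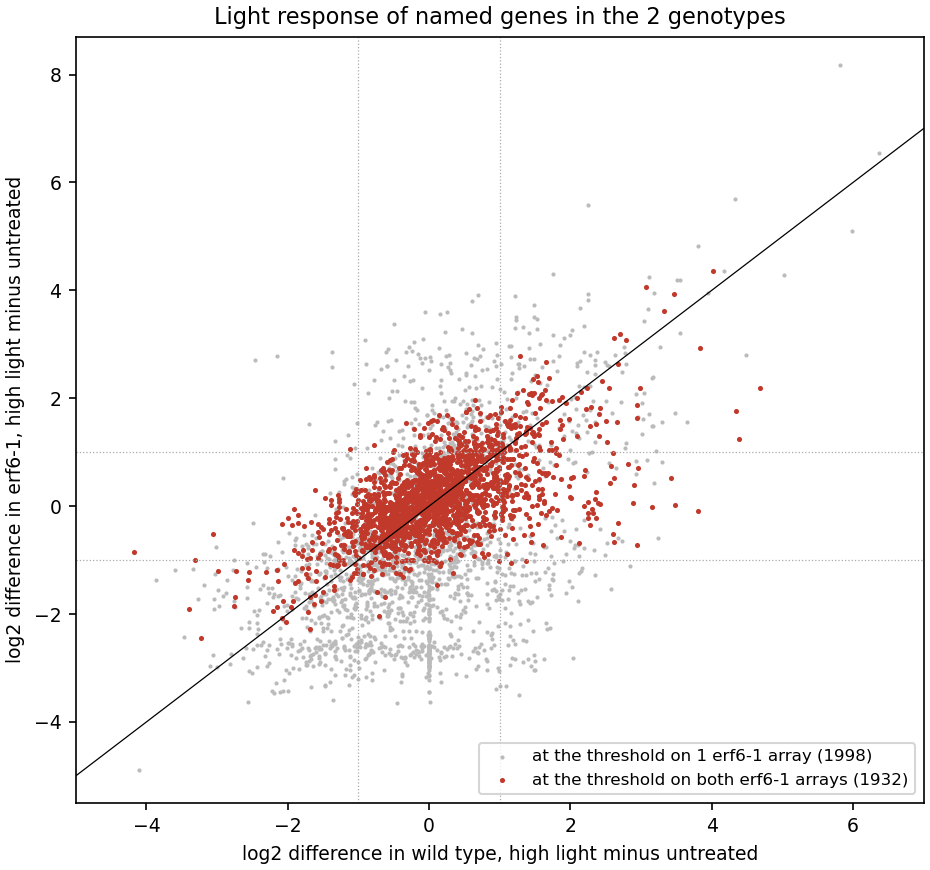
log2 difference (high light minus untreated) of named genes in erf6-1 (vertical) and in wild type (horizontal); red points reached 588 on both erf6-1 arrays and grey ones on 1. Genes under the floor on both wild-type arrays sit at 0 on the horizontal axis; red points follow the line of equal differences more closely than grey ones, with correlations of 0.61 over red and 0.52 over all points.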

How the data were processed

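The 4 arrays, 1 for each genotype and light condition, were used as deposited. The values are linear intensity signals that the authors made with MAS5, per the submitters' processing notes, its version not given in the sources used here; raw scanner files and detection calls were left aside. Python 3.11.15, numpy 2.4.6, pandas 2.3.3 and matplotlib 3.10.9 were used. Probe sets were joined to genes through the supplied platform annotation and RefSeq gene table: of 22746, 14016 were listed, 13513 with 1 gene, and 13436 of these matched a current locus. A gene with several named probe sets was represented by the brightest over both erf6-1 arrays. Signals were raised to a floor of 100, members reached 588 on at least 1 erf6-1 array, and calls were made at 2-fold, with no test, since each group had 1 array; the number of arrays limits the precision. Named genes were the 20 highest and 20 lowest above the floor, the 10 largest bounds each way and the 10 brightest of each erf6-1 array. From each list, up to 6 members each way and the one nearest 0 were added. Genes outside that rule were chosen after values were seen. Not all of them are marked so where named, NTRC, ATG3, RPN12a, psbE and psbL among them. There were 25 gene lists, 29 families taken by name and 15 lists added after values were seen. Of 885 listed loci, 176 had a named probe set and 121 passed the filter. Members and lists were chosen with earlier results of these data known. The calculation was tested on simulated data. ERF6 was not analysed here, so the labels could not be checked against it. Alternatives were equal medians, quantile normalisation, another floor, a pseudocount of 100, other filters and, chosen after seeing the data, the untreated wild-type array as reference.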

Additional observations from a re-analysis of the deposited data

Results flagged for a closer look

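Of the 321 genes chosen for naming, 6 differed by 2-fold or more in opposite directions, with a lower signal in high-light erf6-1 and a higher one in high-light wild type. This difference was not tested, since each group had 1 array. Over all 3930 named genes, 83 differed by 2-fold or more in these directions and 11 in the reverse ones. The 6 genes are therefore examples and not a set apart. All 6 have their higher erf6-1 signal, between 602 and 1133, on the untreated array. Except for AT2G48130, with 697 in high light, they stayed under 588 on both wild-type arrays. AT1G28160, an ERF-type factor, had a log2 difference of -2.87 in erf6-1 and a bound of 1.50 in the wild type. AT2G20690 stood at -3.50, a bound, in erf6-1 and at 1.27 in the wild type, with 55.2 in high-light and 1133 in untreated erf6-1. The ubiquitin ligase PUB23 stood at -1.89 in erf6-1 and at 1.07 in the wild type. DPE1, an enzyme of starch breakdown in the chloroplast, had 192 in high-light and 602 in untreated erf6-1, a difference of -1.65, and stood at 1.72 in the wild type. AT2G48130 and AT5G13900, both lipid transfer-type proteins, were at -1.39 and -1.14 in erf6-1, against 1.50 and a bound of 2.17 in the wild type.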

How the results depend on the processing

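As deposited, 1280 probe sets had 2-fold or more signal in high-light erf6-1 and 1860 were lower by as much, so that 40.8% of the differences were higher. With equal medians the counts were 2863 and 493 (85.3% higher). With each probe set required to reach 588 on both arrays they were 541 and 157 (77.5%), with the filter at the pooled median of 248.6 they were 2654 and 4988 (34.7%), and with no filter 3063 and 5446 (36.0%). The share was 50.8% after quantile normalisation and 47.4% with the untreated wild-type array as reference, a setting chosen after seeing the data that adds the difference between genotypes. A floor of 50 or 200 gave the same counts by construction, since members reach 588. With equal medians, list medians crossed 2-fold for large chaperones (1.45), flavonoid genes (1.00), autophagy and proteasome (1.59), aldehyde dehydrogenases (1.04), lipid transfer proteins (1.20), carbonyl enzymes (1.19), ubiquitin-conjugating enzymes (1.24), vacuolar sorting (1.14) and plastid ATP synthase (-0.75), and turned round for cell wall genes (0.48) and U-box ligases (0.34). After quantile normalisation they crossed for the unfolded protein response (-1.01), UDP-glycosyltransferases (0.97) and plastid-encoded genes (-1.11), and with the pseudocount for UDP-glycosyltransferases (0.93). With the filter at the pooled median they crossed for cell wall genes (-0.67), UDP-glycosyltransferases (0.30) and the plastid NDH complex (-0.82), and with no filter for these (-0.15, 0.00 and -0.58), for oxidative stress markers (0.39) and for LEA proteins (0.56), where members dim on both arrays enter. Against the untreated wild-type array they crossed for autophagy and proteasome (1.20), plastid-encoded genes (-1.97) and plastid ribosomal proteins (-1.75). Of the single genes chosen for naming and still measured, 73 of 300 crossed 2-fold with equal medians and 22 of 312 after quantile normalisation. With the pseudocount 6 of 321 crossed. Against the untreated wild-type array 49 of 276 crossed, and AER turned round, to -0.34. The cause was not tested beyond these constructions. No paired analysis was possible because each group has 1 array, and none can be left out.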
